A study of Mus musculus with 23 samples.

Results

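Erbb2, Egfr, Erbb3 and Erbb4 encode the ERBB family of receptor tyrosine kinases, and the 4 genes were followed here in mouse skin exposed to ultraviolet light (UV). The probe sets were taken as every one of the normalised array table whose platform annotation names one of these genes alone. This gave 9 probe sets for 4 of the 12106 genes on the array: 1 for Erbb2, 5 for Egfr, 2 for Erbb3 and 1 for Erbb4. Where one probe set stands for a gene, the lead probe set was used, which is the one with the highest mean over the arrays.

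Whole back skin of adult female CD-1 mice, an outbred stock, was profiled on 23 Affymetrix MOE430A arrays. The clipped and shaved skin received either the solvent DMSO alone or 4 mg of AG825 in DMSO, 2 h before 10 kJ/m2 of UV, mostly UVB, or a sham exposure; AG825 is a tyrphostin inhibitor of the Erbb2 kinase. All 6 groups therefore carry DMSO and shaving. The groups are DMSO sham, DMSO 6 h, DMSO 24 h, AG825 sham and AG825 6 h with 4 arrays each, and AG825 24 h with 3 arrays; the hours count from UV to harvest, and both sham groups were harvested at 6 h only, so no sham skin matches the 24 h harvest in time. No label says that replicates came from different mice. The p-values therefore describe how these samples varied, which may be technical variation. Whole skin holds many cell types, and in such bulk samples fewer cells of a type and less mRNA per cell cannot be told apart.

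As background, ERBB receptors sit in the cell membrane, bind growth factors of the EGF and neuregulin families, pair with one another and phosphorylate tyrosines in their own tails. Egfr binds EGF-like ligands directly and drives growth and survival of basal keratinocytes and the outer layers of the hair follicle. Erbb2 has no known soluble ligand and acts as the favoured partner of the other receptors, while Erbb3 binds neuregulins, has a weak kinase and signals mainly through phosphoinositide 3-kinase in pairs with Erbb2. Erbb4 binds neuregulins and some EGF-like ligands and is best known from heart, brain and mammary gland.

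In GRCm38.p6, Erbb2 lies on chromosome 11 from 98412484 to 98437716, Egfr on the same chromosome from 16752203 to 16913907, Erbb3 on chromosome 10 from 128567523 to 128589635 and Erbb4 on chromosome 1 from 68031884 to 69108576. The probe sequences were not used here. The promoters of Erbb2 and Egfr are shown because the mRNA of the first fell after UV while the lead probe set of the second passed no UV comparison. Each is the RefSeq sequence from 250 bases before to 50 bases after the gene start, on the plus strand, at chr11:98412234-98412533 for Erbb2 and chr11:16751953-16752252 for Egfr, with TCCTCC or its complement GGAGGA in capitals.
Erbb2: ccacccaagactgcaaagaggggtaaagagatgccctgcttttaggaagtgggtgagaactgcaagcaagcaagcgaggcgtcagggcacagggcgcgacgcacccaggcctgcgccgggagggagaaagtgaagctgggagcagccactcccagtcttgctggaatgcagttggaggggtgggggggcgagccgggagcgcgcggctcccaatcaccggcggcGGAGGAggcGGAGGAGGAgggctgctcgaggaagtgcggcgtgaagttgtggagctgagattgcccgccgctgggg
Egfr: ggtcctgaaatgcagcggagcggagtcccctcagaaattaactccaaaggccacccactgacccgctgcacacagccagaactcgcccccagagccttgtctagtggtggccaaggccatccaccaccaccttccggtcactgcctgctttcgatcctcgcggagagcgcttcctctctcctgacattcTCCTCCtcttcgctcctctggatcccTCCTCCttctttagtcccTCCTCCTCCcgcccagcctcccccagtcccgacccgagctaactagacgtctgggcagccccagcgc
Both promoters are rich in G and C, at 66.0% for Erbb2 and 62.3% for Egfr, against a median of 52.7% over 32851 RefSeq promoters of this length. The TCCTCC motif, searched on both strands with overlapping matches counted, occurs 3 times in the Erbb2 window and 4 times in the Egfr window. At least 1 match is present in 34.5% of all promoters and at least 3 matches in 3.05%. Of the other motifs searched on both strands, TATAAA is in neither window, against 13.6% of all promoters. CCAAT occurs 1 time for Erbb2 and 0 times for Egfr (37.4% of all promoters), and GGGCGG 0 times and 1 time (35.7%). TCCTCC was chosen after the sequences had been read, and these matches describe letters only.

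Of the 9 probe sets, 6 were called present on all 23 arrays by the dChip detection calls and 2 on none, the Erbb4 probe set 1427783_at and the second Erbb3 probe set 1452482_at. The remaining one, Egfr 1454313_at, was present on 9 arrays. By the GCOS detection calls, which cover 22 arrays and lack DMSO 6 h replicate G, Erbb2 1424919_at was present on 17 arrays, including 4 of 4 in each sham group but 1 of 3 at DMSO 6 h, 3 of 4 at DMSO 24 h, 3 of 4 at AG825 6 h and 2 of 3 at AG825 24 h. The lead probe sets of Egfr (1460420_a_at) and Erbb3 (1434606_at) were present on 22 of 22. Values below are RMA log2 expression unless another scale is named.

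**Figure D1:**
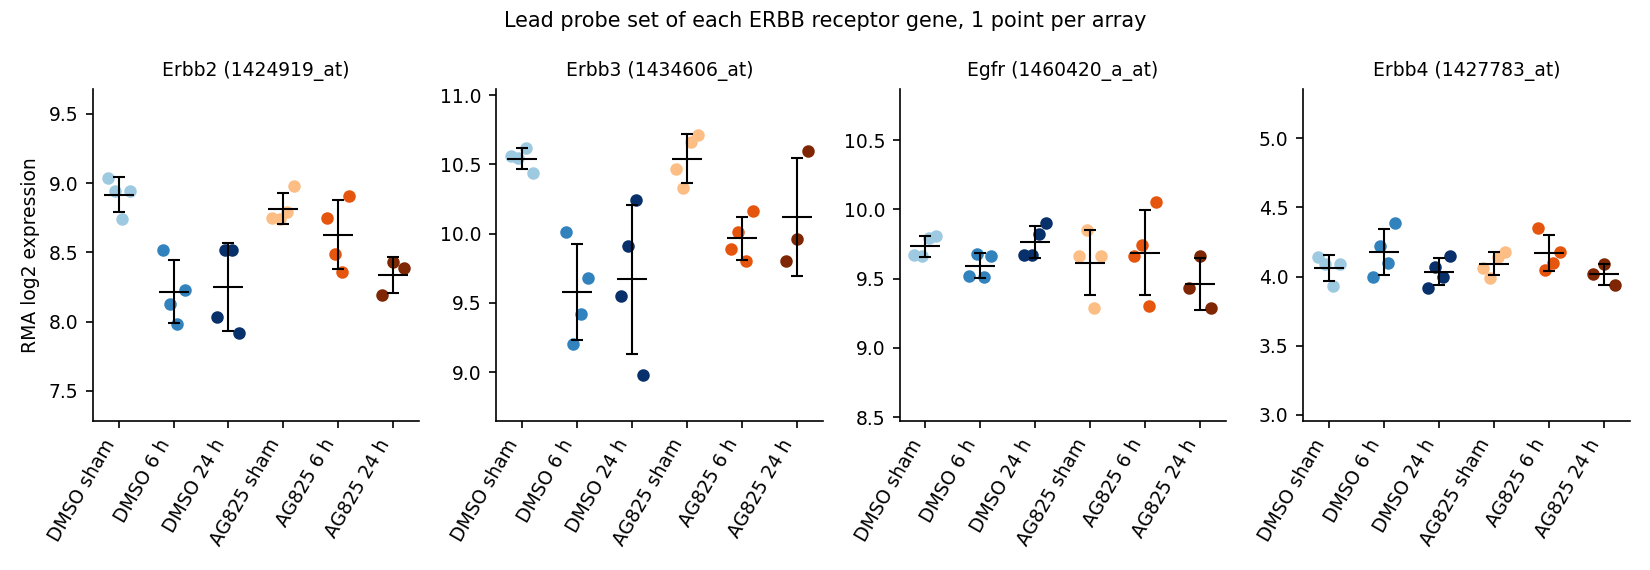
RMA log2 expression of the lead probe set of Erbb2, Erbb3, Egfr and Erbb4 (one panel each; every axis spans the same log2 range) on each array, with points for arrays and bars for the group mean and SD. Erbb2 and Erbb3 at DMSO 6 h and DMSO 24 h lie below all DMSO sham arrays, Egfr groups overlap their sham group, and Erbb4 stays between 3.92 and 4.39 with an absent call on every array.

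Erbb2, the target of AG825, had less mRNA in irradiated than in sham DMSO skin at both times. Its log2 expression was 9.04, 8.94, 8.74 and 8.94 on the DMSO sham arrays, 8.52, 8.13, 7.98 and 8.23 at 6 h after UV, and 8.03, 8.52, 8.52 and 7.92 at 24 h. All irradiated DMSO arrays lay below all DMSO sham arrays. The log2 difference from sham was -0.70 ± 0.15 (SE, n = 4 against 4; 95% interval -1.004 to -0.397; adjusted p = 0.00193) at 6 h and -0.67 ± 0.15 (95% interval -0.98 to -0.37; adjusted p = 0.00506) at 24 h in the limma model of all probe sets, adjusted by the Benjamini-Hochberg method. The mRNA thus stood at 61.5% and 62.8% of its sham level. At 6 h, 18.4% of all probe sets were called in this comparison, 10.7% as lower, and 9.82% had lower values without overlap. At 24 h the same percentages were 8.72, 3.83 and 7.35. Only 4.87% of probe sets had a lower log2 difference than Erbb2 at 6 h and 2.5% at 24 h. These calls depend on the signal scale. At 6 h the call held with the dChip signal but not with the GCOS signal (-0.77; adjusted p = 0.0517), and at 24 h it was lost with both (-0.70, adjusted p = 0.102, with dChip, and -0.59, adjusted p = 0.176, with GCOS).

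In AG825 skin the Erbb2 difference at 6 h did not pass. The sham arrays read 8.75, 8.74, 8.79 and 8.98, the 6 h arrays 8.75, 8.49, 8.36 and 8.91, and the 24 h arrays 8.19, 8.43 and 8.39. The 6 h arrays overlapped the sham arrays, while all 24 h arrays lay below all sham arrays. The log2 difference was -0.18 ± 0.15 (95% interval -0.49 to 0.12; adjusted p = 0.578) at 6 h and -0.48 ± 0.16 (95% interval -0.81 to -0.15; adjusted p = 0.0899) at 24 h. Fewer probe sets were called in AG825 skin, 2.73% at 6 h and 4.85% at 24 h, and 12.8% had lower 24 h values without overlap. Averaged over both drugs, Erbb2 fell by 0.44 on the log2 scale at 6 h (SE 0.10; adjusted p = 0.00374; 23.4% of probe sets called, 13.3% lower) and by 0.57 at 24 h (SE 0.11; adjusted p = 0.000739; 15% called, 7.15% lower). With the GCOS signal the 24 h mean was -0.53 (adjusted p = 0.0565).

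Ordered by mean log2 expression ± SD, Erbb2 was at 8.92 ± 0.13 in DMSO sham, 8.81 ± 0.11 in AG825 sham, 8.63 ± 0.25 at AG825 6 h, 8.34 ± 0.13 at AG825 24 h (n = 3), 8.24 ± 0.32 at DMSO 24 h and 8.22 ± 0.23 at DMSO 6 h (n = 4 in all others). Each group overlapped its neighbour in this order. Between 6 h and 24 h the log2 difference was 0.03 (95% interval -0.28 to 0.33; adjusted p = 0.942) in DMSO skin and -0.29 (95% interval -0.62 to 0.04; adjusted p = 0.24) in AG825 skin. In these comparisons 0.0458% and 0.229% of all probe sets were called.

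Erbb3, the neuregulin receptor that pairs with Erbb2, also had less mRNA after UV. Its lead probe set read 10.56, 10.55, 10.62 and 10.44 in DMSO sham, 10.01, 9.20, 9.42 and 9.68 at DMSO 6 h, and 9.55, 9.91, 10.24 and 8.98 at DMSO 24 h. No irradiated DMSO array reached the lowest sham array, as held for 9.82% of all probe sets at 6 h and 7.35% at 24 h. The log2 difference was -0.96 ± 0.21 at 6 h (95% interval -1.41 to -0.52; adjusted p = 0.00315), or 51.3% of the sham level, and -0.87 ± 0.21 at 24 h (95% interval -1.32 to -0.43; adjusted p = 0.0122), or 54.6%. The 24 h call rests on DMSO 24 h replicate E, the lowest array: without it the log2 difference was -0.64 (adjusted p = 0.0608). Only 2.19% of probe sets at 6 h and 1.33% at 24 h had a lower log2 difference than Erbb3 in DMSO skin. Probe sets called lower made up 10.7% at 6 h and 3.83% at 24 h.

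In AG825 skin Erbb3 read 10.47, 10.33, 10.66 and 10.71 after sham, 9.89, 10.01, 9.80 and 10.16 at 6 h, and 9.80, 9.96 and 10.60 at 24 h. The 6 h arrays lay below every sham array, as did 4.11% of all probe sets in that comparison, and the 24 h arrays overlapped the sham arrays through replicate C at 10.60. Neither log2 difference passed, at -0.58 ± 0.21 at 6 h (95% interval -1.02 to -0.13; adjusted p = 0.179) and -0.42 ± 0.23 at 24 h (95% interval -0.90 to 0.06; adjusted p = 0.298). Averaged over both drugs, Erbb3 fell by 0.77 on the log2 scale at 6 h (SE 0.15, limma adjusted p = 0.000926, 13.3% of probe sets called lower). At 24 h this mean fall was 0.65 (SE 0.16, limma adjusted p = 0.00678, 7.15% called lower). Group means ± SD ran from 10.54 ± 0.08 in DMSO sham and 10.54 ± 0.17 in AG825 sham through 10.12 ± 0.42 at AG825 24 h (n = 3), 9.96 ± 0.16 at AG825 6 h and 9.67 ± 0.54 at DMSO 24 h to 9.58 ± 0.35 at DMSO 6 h (n = 4 in all others), and every group overlapped its neighbour in this order. The second Erbb3 probe set, 1452482_at, was absent on all arrays, stayed between 7.21 and 8.07 and passed no comparison, so the Erbb3 result rests on 1 probe set.

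Egfr, the receptor of EGF-like ligands, did not pass in any UV comparison by its lead probe set. The probe set read 9.67, 9.66, 9.79 and 9.81 in DMSO sham, 9.52, 9.68, 9.51 and 9.66 at DMSO 6 h, and 9.67, 9.67, 9.82 and 9.90 at DMSO 24 h. In AG825 skin it read 9.66, 9.85, 9.29 and 9.66 after sham, 9.66, 9.74, 9.30 and 10.05 at 6 h, and 9.43, 9.66 and 9.29 at 24 h. Irradiated arrays overlapped sham arrays in each of these comparisons. The log2 difference averaged over drugs was -0.03 at 6 h (95% interval -0.23 to 0.16; adjusted p = 0.813) and -0.06 at 24 h (95% interval -0.26 to 0.14; adjusted p = 0.697). These intervals of the lead probe set do not reach the mean fall of either Erbb2 or Erbb3. At 6 h the interval of Egfr 1451530_at (-0.56 to 0.18) does include the Erbb2 value of -0.44, while those of the other Egfr probe sets do not. Group means ± SD ran from 9.76 ± 0.11 at DMSO 24 h, 9.73 ± 0.08 in DMSO sham, 9.69 ± 0.31 at AG825 6 h, 9.61 ± 0.23 in AG825 sham and 9.59 ± 0.09 at DMSO 6 h to 9.46 ± 0.19 at AG825 24 h, and neighbours in this order overlapped.

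The other 4 Egfr probe sets differed among themselves. Probe set 1424932_at ranged from 8.16 to 9.22 over the arrays, 1451530_at from 6.68 to 8.31 and 1454313_at from 6.83 to 7.58, and none of these passed a UV comparison. The dim probe set 1432647_at, which GCOS called present on 5 of 22 arrays, read 6.93 to 7.02 in DMSO sham, 7.05 to 7.14 at DMSO 6 h and 6.80 to 7.01 at DMSO 24 h. In AG825 skin it read 6.70 to 6.97 after sham, 6.96 to 7.17 at 6 h and 6.65 to 6.81 at 24 h. Averaged over drugs it was 0.15 higher than sham at 6 h (log2 difference, SE 0.05; adjusted p = 0.041; 10.1% of probe sets called as higher) and 0.25 lower at 24 h than at 6 h (log2 difference -0.25 ± 0.06; adjusted p = 0.0161; 7.77% of probe sets called). Neither call was kept with the GCOS signal, where the log2 differences were 0.04 (adjusted p = 0.914) and -0.34 (adjusted p = 0.362), or with the dChip signal, where they were 0.15 (adjusted p = 0.372) and -0.27 (adjusted p = 0.191). The 6 h call was also lost without any one of 12 arrays, with adjusted p up to 0.0849, and the later call without AG825 24 h replicate C (-0.24; adjusted p = 0.0548).

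**Figure D2:**
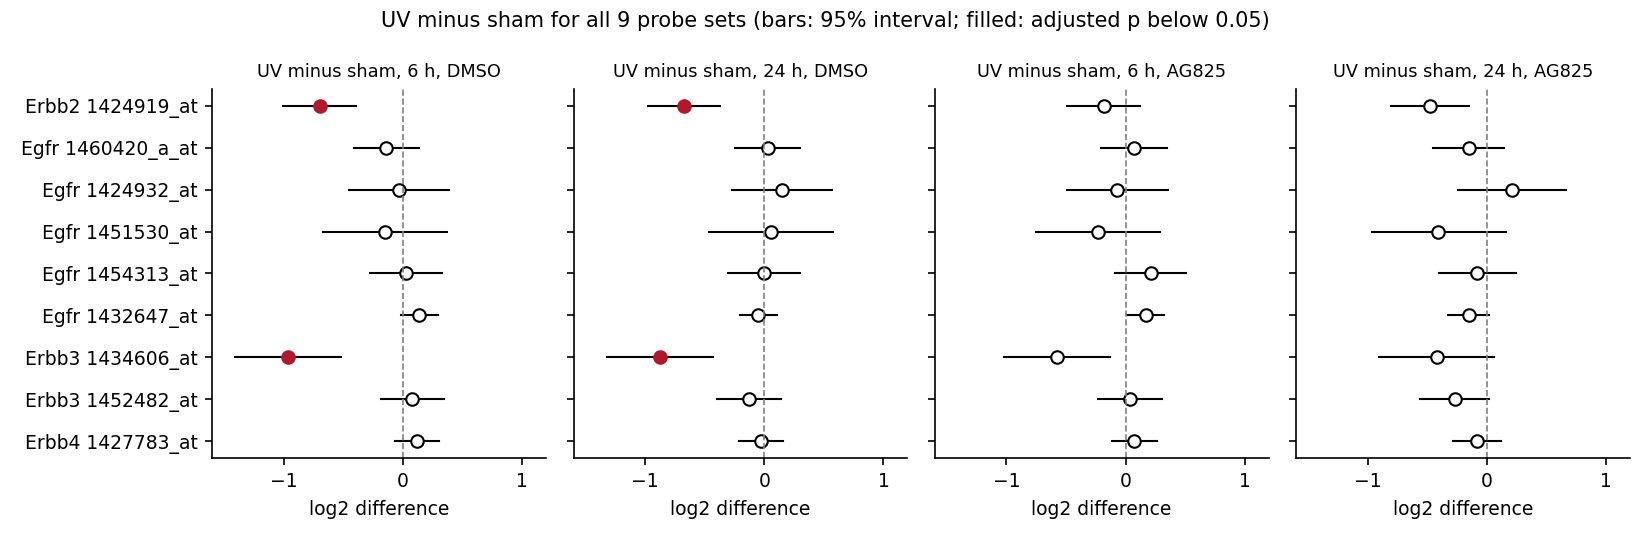
Log2 difference of UV minus sham (x axis) for all 9 probe sets (y axis) at 6 h and 24 h in DMSO and AG825 skin, with 95% intervals from limma; filled points have an adjusted p below 0.05. The filled points are Erbb2 1424919_at and Erbb3 1434606_at in DMSO skin at 6 h (-0.70 and -0.96) and at 24 h (-0.67 and -0.87).

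Erbb4, the remaining neuregulin receptor, was called absent on every array by both dChip and GCOS. Its values ran from 3.93 to 4.14 in DMSO sham, 4.00 to 4.39 at DMSO 6 h, 3.92 to 4.15 at DMSO 24 h, 3.99 to 4.18 in AG825 sham, 4.05 to 4.35 at AG825 6 h and 3.94 to 4.09 at AG825 24 h. All groups overlapped, and no fold is given for a probe set below detection.

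Whether the receptors changed by different amounts was tested on the difference between 2 lead probe sets within each array, with UV and sham labels permuted within each drug (exact permutation test, two-sided, 6 tests, 8 UV and 8 sham arrays at 6 h, 7 and 8 at 24 h). Erbb2 minus Egfr changed by -0.41 on the log2 scale at 6 h (exact permutation, adjusted p = 0.0098) and by -0.51 at 24 h (exact permutation, adjusted p = 0.00653). These changes are means over the drugs. In DMSO and AG825 skin Erbb2 minus Egfr changed by -0.56 and -0.26 at 6 h, and by -0.70 and -0.33 at 24 h. In DMSO skin Erbb2 minus Egfr lay between -1.05 and -0.63 after sham and between -1.54 and -1.01 at 6 h. In AG825 skin it lay between -1.11 and -0.50 after sham and between -1.24 and -0.90 at 6 h. Erbb3 minus Egfr changed by -0.73 at 6 h (exact permutation, adjusted p = 0.00245) and by -0.58 at 24 h (exact permutation, adjusted p = 0.0309). The 24 h result was lost without any one of 6 arrays, among them AG825 24 h replicate B, without which it was -0.50 (exact permutation, adjusted p = 0.096). In DMSO and AG825 skin Erbb3 minus Egfr changed by -0.82 and -0.65 at 6 h, and by -0.90 and -0.27 at 24 h. Whether these changes differ between the drugs was not tested. Erbb2 minus Egfr at 6 h was also lost with the second Egfr probe set (-0.39; exact permutation, adjusted p = 0.115). At 24 h both differences from Egfr were lost with the GCOS signal (-0.37 for Erbb2 and -0.58 for Erbb3; exact permutation, adjusted p = 0.131 each).

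Between the pair that fell, Erbb2 minus Erbb3 changed by 0.33 on the log2 scale at 6 h (exact permutation, adjusted p = 0.00245), so that the log2 value of Erbb3 fell further. With the dChip signal it changed by 0.07 (exact permutation, adjusted p = 0.762) and with the GCOS signal by 0.19 (exact permutation, adjusted p = 0.176). At 24 h it was 0.07 (exact permutation, adjusted p = 0.578).

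**Figure D3:**
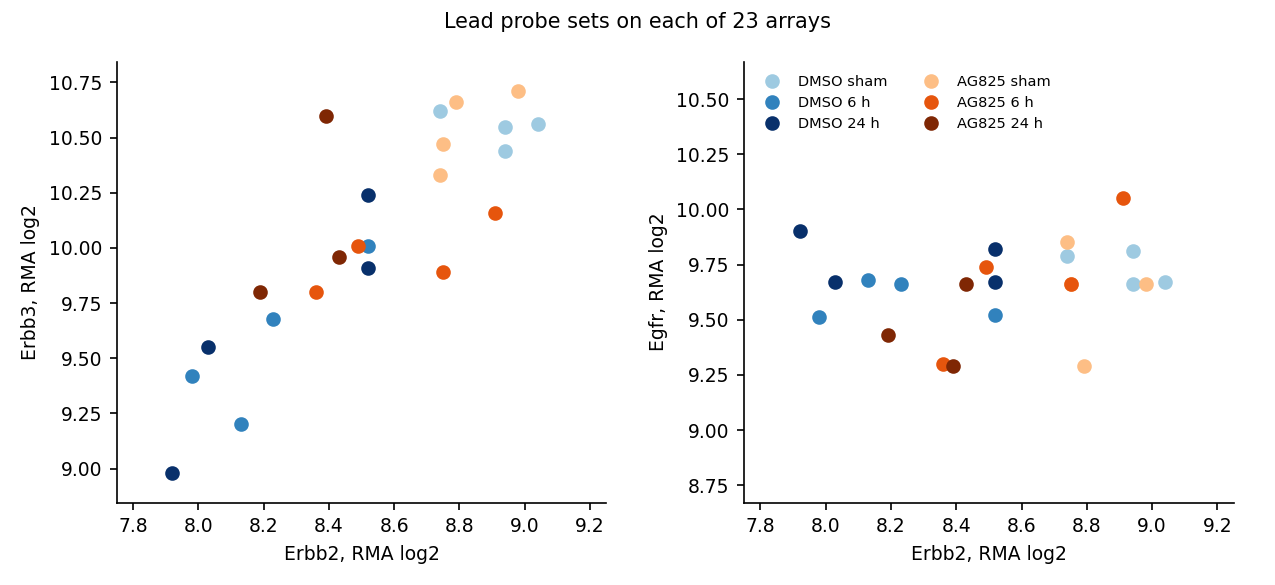
RMA log2 expression of Erbb3 (left) and Egfr (right) against Erbb2 on each of 23 arrays, coloured by group; both y axes span the same log2 range. Most arrays with low Erbb2, largely DMSO 6 h and DMSO 24 h, also have low Erbb3. An exception is AG825 24 h replicate C, with Erbb2 at 8.39 and Erbb3 at 10.60. Egfr spans 9.29 to 10.05 with no such order.

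In sham skin, AG825 and DMSO arrays overlapped for Erbb2, Erbb3 and Egfr. After sham, AG825 minus DMSO was -0.10 for Erbb2 (log2 difference, 95% interval -0.41 to 0.20), 0.00 for Erbb3 (95% interval -0.44 to 0.44) and -0.12 for Egfr (95% interval -0.39 to 0.15), each with an adjusted p of 1. After UV no receptor passed this comparison either. Erbb2 was 0.41 ± 0.15 higher in AG825 than in DMSO skin at 6 h (log2 difference, 95% interval 0.11 to 0.72; unadjusted p = 0.01; adjusted p = 0.506), with overlapping arrays. Without the 3 arrays of lowest percent present it was 0.21. Erbb3 was 0.39 ± 0.21 higher (95% interval -0.06 to 0.83; adjusted p = 0.755). At 24 h the log2 differences were 0.09 for Erbb2 (95% interval -0.24 to 0.42; adjusted p = 0.782) and 0.45 for Erbb3 (95% interval -0.03 to 0.93; adjusted p = 0.468). By its lead probe set Egfr was 0.30 lower at 24 h (log2 difference -0.30, 95% interval -0.60 to -0.01, limma unadjusted p = 0.0459, adjusted p = 0.465). The AG825 arrays of this probe set lay below its DMSO arrays, as did 10.1% of all probe sets. The other Egfr probe sets differed in direction, from -0.483 for 1451530_at to 0.065 for 1424932_at, and none passed. In none of the comparisons of AG825 with DMSO (sham, 6 h, 24 h and the mean of the 3) was any of 19645 probe sets called by limma; 193, 1415, 2087 and 1096 had an unadjusted p under 0.05. Other settings called up to 21 at 6 h, without AG825 6 h replicate D, and up to 1944 at 24 h, with array weights.

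The difference between the drugs in the UV change of Erbb2 was tested directly. At 6 h it was 0.52 ± 0.21 on the log2 scale (95% interval 0.09 to 0.95; unadjusted p = 0.0207; adjusted p = 0.688; 0.32 without the 3 arrays of lowest percent present), and at 24 h 0.19 ± 0.22 (95% interval -0.25 to 0.64; adjusted p = 0.887). For Erbb3 it was 0.39 (95% interval -0.24 to 1.02; adjusted p = 0.957) at 6 h and 0.45 (95% interval -0.203 to 1.105; adjusted p = 0.855) at 24 h. So the pass in DMSO skin and the miss in AG825 skin at 6 h are not shown to differ. This limma interaction called 0 of 19645 probe sets at 6 h (1209 with an unadjusted p under 0.05; 2 with the GCOS signal) and 1, or 0.00509%, at 24 h (124 with array weights).

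Markers of several skin compartments moved in the same comparisons as Erbb2 and Erbb3. The counts of these lists stand against different backgrounds: probe sets called lower made up 10.7% at DMSO 6 h, 3.83% at DMSO 24 h, 1.26% at AG825 6 h and 1.49% at AG825 24 h, and those called higher 7.77%, 4.89%, 1.48% and 3.35%. Of 16 measured hair follicle genes, 16 fell at DMSO 6 h, with a median log2 difference of -3.70 against 0.01 over all probe sets. Their mean log2 level per array was 11.01 to 11.67 in DMSO sham and 6.78 to 9.50 at DMSO 6 h, with no gene absent on all arrays. At AG825 6 h, 0 of 16 passed, with a median log2 difference of -1.09. The mean level was 9.89 to 11.59 in AG825 sham and 8.20 to 11.23 at AG825 6 h. At DMSO 24 h, 4 of 16 fell (median log2 difference -1.48), with a mean level of 8.38 to 10.99. In AG825 skin at 24 h, 1 of 16 fell (median log2 difference -0.92), with a mean level of 9.83 to 10.43. Since fewer probe sets of any kind were called in AG825 skin, these counts do not show that the hair follicle genes differed between the drugs.

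Melanocytes, neural crest derivatives that carry Erbb3, showed a like pattern. Of 7 marker genes, 7 fell at DMSO 6 h (median log2 difference -1.91) and 5 at DMSO 24 h (-1.05). In AG825 skin 1 of 7 fell at 6 h (-0.18) and 1 of 7 at 24 h (-0.73), where the background was lower as given above. Their mean log2 level was 9.07 to 10.07 in DMSO sham and 7.84 to 8.26 at DMSO 6 h. Of 8 basal keratinocyte genes, 3 fell at DMSO 6 h (median log2 difference -0.35) and 2 at DMSO 24 h (-0.33). Their mean log2 level was 11.18 to 11.36 in DMSO sham against 10.64 to 11.03 at DMSO 6 h. In AG825 skin 1 of 8 fell at 6 h (-0.35) and 0 at 24 h (-0.12). There the mean level was 11.27 to 11.53 after sham and 10.83 to 11.12 at 6 h. Schwann cells are another carrier of Erbb3. Of 7 measured Schwann genes 0 fell and 1 rose at DMSO 6 h. Among these 7, Sox10, Mal and Gfap were called absent on all arrays, so a fall of these could not be seen. All 9 leukocyte genes rose at DMSO 6 h and at DMSO 24 h, with a mean log2 level of 8.30 to 9.10 in DMSO sham and 10.78 to 11.20 at DMSO 6 h. In AG825 skin 4 of 9 leukocyte genes rose at 6 h and 7 of 9 at 24 h. Of 7 suprabasal keratinocyte genes, 1 fell at DMSO 6 h, 5 fell at DMSO 24 h (median log2 difference -1.23), 1 fell at AG825 6 h and 2 fell at AG825 24 h (-1.11). Of 8 endothelial genes, 6 rose at DMSO 6 h (0.83) and 6 at DMSO 24 h (0.84), 0 at AG825 6 h and 1 at AG825 24 h. Skeletal muscle genes rose in 3 of 8 and fibroblast genes in 2 of 8 at DMSO 6 h, 1 of 5 sebaceous gland genes fell at DMSO 24 h, and no adipocyte gene of 6 passed in these 4 comparisons. The part of these cell types in the receptor differences was not tested beyond the 3 scores given next.

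With a score of such a list as a covariate, the receptor differences became smaller. At DMSO 6 h the Erbb2 difference was -0.39 (adjusted p = 0.224) with the basal keratinocyte score, -0.17 (0.744) with the hair follicle score and -0.02 (0.999) with the melanocyte score, against -0.70 without a score. For Erbb3 the same differences were -0.41 (adjusted p = 0.357), -0.20 (0.819) and -0.04 (0.999), against -0.96. At DMSO 24 h Erbb2 kept its call narrowly with the basal keratinocyte score (-0.49, limma adjusted p = 0.0484). It also kept it with the hair follicle score (-0.46, limma adjusted p = 0.0287), but not with the melanocyte score (-0.25, limma adjusted p = 0.774). Erbb3 at DMSO 24 h lost its call with each of these scores. The scores themselves differ between the groups. The number of probe sets called at DMSO 6 h went from 3623 to 620, 252 and 24 with the basal keratinocyte, hair follicle and melanocyte scores. At DMSO 24 h it went from 1714 to 141 with the melanocyte score. So the marker genes and the UV exposure cannot be told apart at either time. The hair follicle genes were also 2.27 higher (median log2 difference) in AG825 than in DMSO skin at 6 h, with 0 of 16 passing, and the melanocyte genes 1.11 higher, with 0 of 7 passing.

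**Figure D4:**
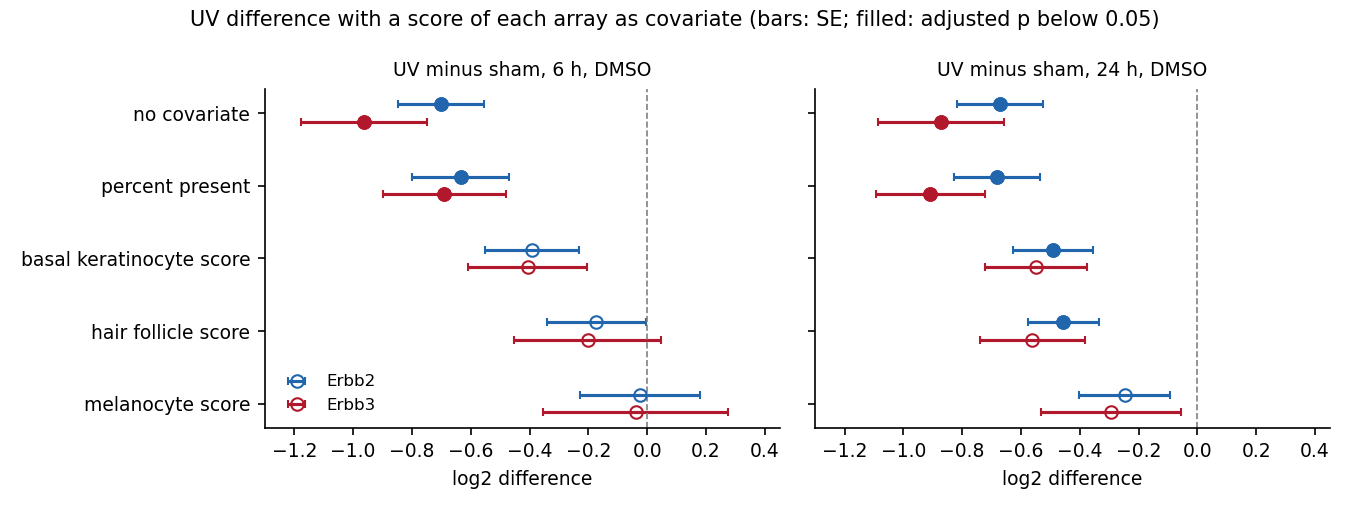
Log2 difference of UV minus sham in DMSO skin at 6 h and 24 h for Erbb2 and Erbb3 (x axis), fitted with no covariate or with 1 score per array as covariate (y axis); bars are SE and filled points have an adjusted p below 0.05. At 6 h the Erbb2 difference moves from -0.70 with no covariate to -0.02 with the melanocyte score, and the Erbb3 difference from -0.96 to -0.04.

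Present calls covered 62.3% to 71.4% of probe sets on each array, and arrays of 1 group correlated across probe sets at 0.957 to 0.992. The lowest percentages were on DMSO 6 h replicates E and F and AG825 6 h replicate A. Without these 3 arrays, a choice made after seeing the data, the DMSO 6 h difference was -0.54 for Erbb2 (adjusted p = 0.0623) and -0.70 for Erbb3 (adjusted p = 0.103), while the means over both drugs at 6 h still passed (-0.38, adjusted p = 0.0318, and -0.62, adjusted p = 0.0173). With percent present as a covariate, both kept their calls in DMSO skin at 6 h and 24 h.

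Genes whose lead probe set ran most closely with a receptor over the 23 arrays were named by Pearson correlation of log2 values, as a description with no p, since arrays of a group share their treatment. For Erbb2 these were Spint1 and Spint2, inhibitors of membrane serine proteases, Notch1, a receptor of epidermal differentiation, Yap1, a transcriptional co-activator, and Fhdc1, with r from 0.905 to 0.925; Erbb3 stood 51st at 0.854. After subtracting group means the nearest were Celsr1, Ptprf, Spint1, Hoxc13 and Ptprk (0.845 to 0.873), and Erbb3 stood at 0.727. For Erbb3 they were the epithelial splicing regulators Esrp1 (0.945) and Esrp2 (0.942), then Grhl1, a transcription factor of the skin barrier, Rab38, a GTPase of pigment granules, and Arap2; after subtracting group means they were BC016579, Esrp2, Esrp1, Slc39a8 and the keratin Krt17 (0.832 to 0.892). For Egfr they were Dmc1, Ercc2, Cntn2, Trim62 and Vps18 (0.84 to 0.859), and Dmc1, Galnt6, Cldn3, Cntn2 and Trim62 after subtracting group means (0.827 to 0.854). By its lead probe set, Egfr stood at 0.21 with Erbb2 and -0.09 with Erbb3. The other Egfr probe sets were not used here, so the likeness given for Egfr describes its lead probe set alone.

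Among 8 measured ERBB ligands, 2 rose and 1 fell at 6 h averaged over drugs, with a median log2 difference of 0.07 against 0.02 over all probe sets. For this and the next lists, 10.1% of all probe sets were called higher and 13.3% lower at 6 h, and 7.8% and 7.15% at 24 h, so the 1 ligand in 8 that fell is near the background. Epgn, an EGF-like ligand of Egfr, rose by 2.10 ± 0.15 (log2 difference ± SE; adjusted p = 4.04e-09) and was the ligand that passed in all 4 UV comparisons of a single drug. Hbegf, the heparin-binding ligand of Egfr and Erbb4, rose by 0.69 ± 0.25 (adjusted p = 0.0468). Tgfa, another ligand of Egfr, fell by 0.54 ± 0.19 on the log2 scale (adjusted p = 0.0455). At 6 h neither passed in DMSO or AG825 skin alone (limma adjusted p = 0.159 and 0.383 for Hbegf, 0.169 and 0.361 for Tgfa). At 24 h Epgn rose by 1.67 ± 0.15 (adjusted p = 2.42e-07), while Nrg4, a ligand of Erbb4 named here after its value was seen, fell by 0.38 on the log2 scale (adjusted p = 0.0321).

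Among 13 measured negative regulators, 3 rose and 1 fell at 6 h averaged over drugs (median log2 difference 0.14), against 10.1% and 13.3% of all probe sets. Errfi1, an inhibitor that binds the ERBB kinase domain, rose by 1.01 ± 0.15 (adjusted p = 4.41e-05). Dusp6, a phosphatase of ERK, rose by 0.62 ± 0.12 (adjusted p = 0.00077). The E3 ligase adaptor Socs4 rose by 0.23 ± 0.08 (adjusted p = 0.0432). Its probe set was called present on 15 of 23 arrays and passed in neither DMSO nor AG825 skin alone (limma adjusted p = 0.35 and 0.199). Spry1, an inhibitor of receptor signalling, fell by 0.23 ± 0.07 on the log2 scale (adjusted p = 0.017). It changed by -0.435 in DMSO and -0.033 in AG825 skin, which were not shown to differ (limma interaction, adjusted p = 0.605). At 24 h 3 rose and 0 fell: Errfi1 (0.69; adjusted p = 0.00347), Dusp6 (0.83; adjusted p = 6.88e-05) and Socs5, named after its value was seen (0.34; adjusted p = 0.00684).

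Among 19 measured adaptors and effectors, 1 rose and 4 fell at 6 h averaged over drugs (median log2 difference -0.08), counts near the 10.1% and 13.3% of all probe sets. Stat3, a transcription factor activated downstream of the receptors, rose by 0.59 ± 0.10 (adjusted p = 0.000214). Those that fell were Erbin, a scaffold that binds Erbb2 (-0.63 ± 0.13; adjusted p = 0.0018), Pik3r2, a regulatory subunit of phosphoinositide 3-kinase (-0.59 ± 0.13; adjusted p = 0.00282), the docking protein Gab1 (-0.29 ± 0.07; adjusted p = 0.00431) and the kinase Map2k2 (-0.31 ± 0.09; adjusted p = 0.0137), the last named after its value was seen. At 24 h 2 rose and 1 fell: Stat3 (0.63; adjusted p = 0.000235), Map2k1, also named after its value was seen (0.38; adjusted p = 0.00569), and Pik3r2 (-0.48; adjusted p = 0.0214). In the comparisons of AG825 with DMSO, 0 members of the 3 lists passed, as did 0 of all probe sets.

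**Figure D5:**
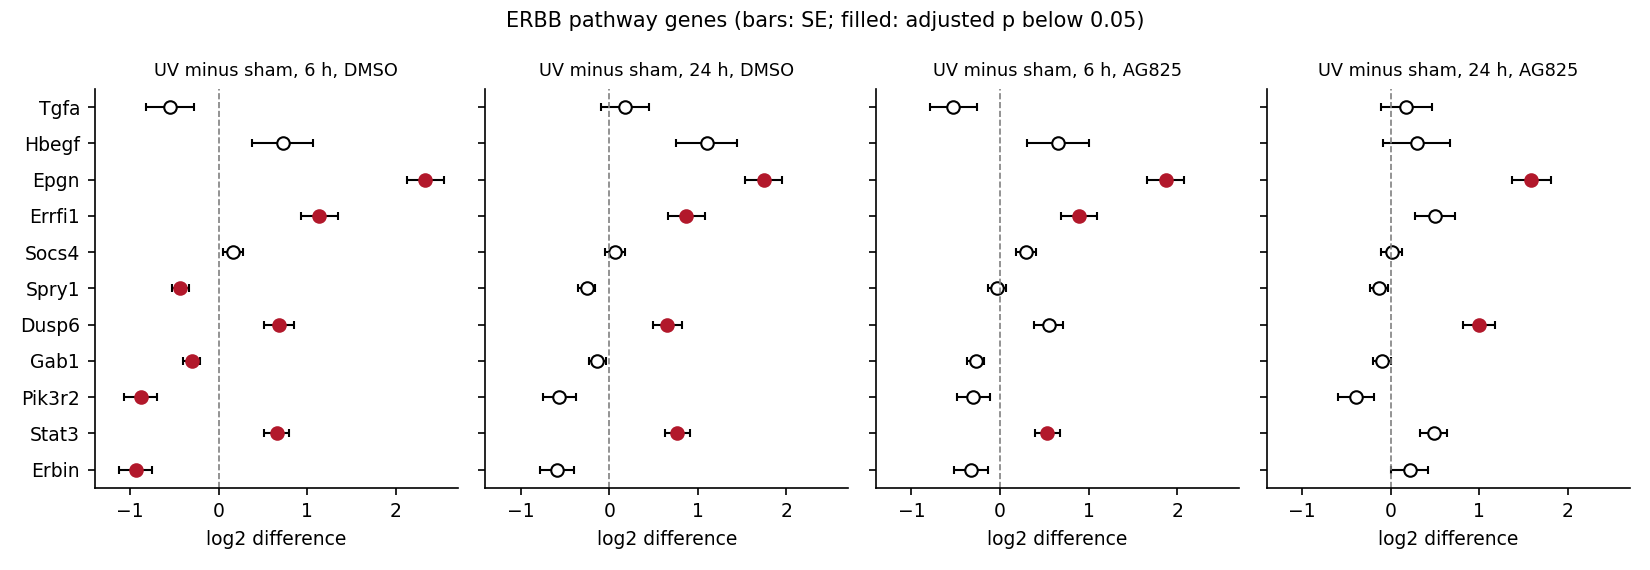
Log2 difference of UV minus sham (x axis) of 11 ligand, regulator and effector genes of the ERBB pathway (y axis) at 6 h and 24 h in DMSO and AG825 skin; bars are SE and filled points have an adjusted p below 0.05. Epgn is filled in all 4 panels, from 1.59 to 2.33, and Erbin and Pik3r2 are filled at DMSO 6 h only (-0.94 and -0.88); whether those differ between drugs was not shown, with interaction adjusted p of 0.757 and 0.783.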

How the data were processed

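Biotinylated cRNA from whole mouse skin was hybridised to 23 MOE430A arrays. The deposited log2 table of 19645 probe sets comes from RMA (version not given), per the submitters' processing notes. The authors also deposited signal on a linear scale with detection calls from dChip (23 arrays) and GCOS (22 arrays, without DMSO 6 h replicate G), per the file headers. The number of arrays, and signal over background, limit the precision.

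One mean per group was fitted to all probe sets (limma 3.58.1, R 4.3.3), with Benjamini-Hochberg adjustment over all probe sets of a comparison and a threshold of 0.05. The exact permutation test and the model were tested on simulated data (Python 3.11.15). dChip signal was floored at 16. GCOS signal was scaled to a trimmed mean of 500 before a pseudocount of 16 or 1. Probe sets were named through the platform table. Alternatives also changed normalization, filter, covariates, block, weights and arrays.

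The members and lists were chosen with earlier results of these data known. Pathway genes named are up to 4 per list with the smallest passing adjusted p at 6 h averaged over drugs, and likeness names the 5 highest correlations. Of 153 listed genes, 129 were measured. Replicate letters recur across groups, but their meaning is not stated, and same-letter arrays correlated at -0.228 to 0.672 (median 0.17, 35 pairs) in their deviations from group means, so they were not used as pairs. The grouping follows the sample titles. No array was left out of the main model.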

Additional observations from a re-analysis of the deposited data

How the results depend on the processing

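Over 51 results and 1203 alternatives, 1156 kept their side of the threshold, 43 lost a call and 4 gained one; none turned a called direction. Most of these results were not called in the main model and had no call to lose, so the kept count does not describe the receptor calls. Of 13 settings other than leaving out single arrays, the DMSO 6 h call was kept in 6 for Erbb2 and 8 for Erbb3. The DMSO 24 h call was kept in 9 and 10. For Erbb2 at DMSO 6 h the calls lost were -0.774 (GCOS, pseudocount 16), -0.8 (pseudocount 1), -0.173, -0.392 and -0.023 (hair follicle, basal keratinocyte and melanocyte scores), -0.621 (replicate block by letter, adjusted p = 0.0671) and -0.541 (without the 3 arrays of lowest percent present); at DMSO 24 h they were -0.698 (dChip), -0.592 and -0.609 (GCOS) and -0.247 (melanocyte score). Averaged over drugs, Erbb2 lost its 6 h call with GCOS at pseudocount 1 (-0.528) and the 3 scores (-0.1, -0.137 and -0.065), and its 24 h call with GCOS (-0.53 and -0.545) and the melanocyte score (-0.209). Erbb3 at DMSO 6 h was lost with GCOS at pseudocount 1 (-0.812), the hair follicle, basal keratinocyte and melanocyte scores (-0.203, -0.407 and -0.039) and without the 3 arrays (-0.696); at DMSO 24 h with the same scores (-0.561, -0.548 and -0.293). Leaving out each array in turn gave -1.062 to -0.643 for it. Averaged over drugs, Erbb3 was lost at 6 h with these scores (-0.277, -0.219 and -0.255) and at 24 h with the hair follicle and melanocyte scores (-0.387 and -0.148). Gained calls at AG825 24 h were Erbb2 with array weights (-0.567) or with the compared groups alone (-0.477), Erbb3 with array weights (-0.609) and Egfr with array weights (-0.252).

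For unequal change, Erbb2 minus Erbb3 at 6 h was 0.071 with dChip and 0.189 with GCOS, Erbb2 minus Egfr was -0.372 at 24 h with GCOS and -0.391 at 6 h with the second Egfr probe set, and Erbb3 minus Egfr at 24 h was -0.579 with GCOS and -0.747 to -0.448 without each array in turn, lost without DMSO sham A or B, AG825 sham D or E, or AG825 24 h A or B. The replicate block changed no other call of the lead probe sets; letters were not shown to pair the samples. GCOS values moved the median of all probe sets by -0.108 (pseudocount 16) and -0.132 (pseudocount 1) at DMSO 6 h. This shift was not subtracted, so the GCOS differences of Erbb2 and Erbb3 there include it.

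Counts of called probe sets ranged, over the alternatives, from 24 to 5495 (main 3623) at DMSO 6 h, 141 to 2802 (1714) at DMSO 24 h, 54 to 1022 (537) at AG825 6 h, 233 to 9029 (952) at AG825 24 h, 336 to 6153 (4592) and 435 to 7360 (2937) for the means of drugs at 6 h and 24 h, and 3 to 6587 (1527) for 24 h against 6 h. The cause of these moves was not tested. Probe sets absent on all arrays, Erbb4 and the second of Erbb3, limit what can be said of these genes.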
